A study of Mus musculus with 6 samples.

Results

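The 52 genes described here carry the names of the machinery that copies and repairs DNA and drives the cell cycle, though a few of them work elsewhere. They were picked by their symbols from the genes on the deposited expression table. A gene belongs to the set where the array annotation gives its transcript cluster (the set of probes that reads a gene) a single symbol of the *Mcm*, *Orc*, *Pola*, *Pold*, *Pole*, *Rfc*, *Rad*, *Fanc*, *Brca*, *Xrcc*, *Msh*, *Cdc*, *Cdk*, *Cdkn*, *Ccna*, *Ccnb*, *Ccnd*, *Ccne* or *E2f* series. *Cdc42* and its relatives, *Cdk15*, *Ccnd1* and *E2f2* were left out, which removed 7 genes on the table. The 52 genes are read by 55 transcript clusters, among 5322 genes with a single symbol and 6951 transcript clusters in all. Where a gene had several clusters, the one with the highest mean intensity was used.

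RNA came from Neuro-2A (N2A) cells, a mouse neuroblastoma line. The cells carried either the shA vector, an shRNA against *Kap1* (3 arrays), or a scrambled control vector (3 arrays). Both groups were transfected with 1.5 µg of the shRNA plasmid and pTK-Hyg, a plasmid for hygromycin resistance, and were selected from day 3 for 7 days, so every sample is a pool of resistant cells, and the knockdown rests on a single shRNA. Values are linear RMA intensities from Mouse Gene ST arrays, and the labels do not say whether the triplicates come from separate transfections. The p-values thus cover only how far these samples spread, possibly for technical reasons. *Kap1* (*Trim28*) stood at 3377, 3443 and 3267 on the control arrays and at 866, 861 and 936 on the knockdown arrays, 26.4% of its control level. Of 14 markers of the sympathoadrenal lineage, to which neuroblastoma belongs, 11 were on the table, and of the lists for astrocytes, fibroblasts, endothelial cells, macrophages and Schwann cells 1 or 2 markers each were listed. Of the sympathoadrenal markers 3 rose and 5 fell. The astrocyte marker *Sox9* fell (log2 fold change -1.22) and the Schwann cell markers *Erbb3* (0.82) and *Egr2* (0.75) rose, and the part of these markers in the results was not tested.

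A cell licenses its replication origins in G1, when the origin recognition complex (ORC) and CDC6 load the ring-shaped MCM helicase. Cyclin-dependent kinases (CDKs) with their cyclins then fire the origins, and DNA polymerases alpha, delta and epsilon copy the strands behind the helicase with the help of the RFC clamp loader. E2F transcription factors switch many of these genes on as cells enter S phase and are held back by the retinoblastoma family. Broken DNA is repaired by recombination or by end joining, and crosslinks by the Fanconi anaemia pathway. In whole-cell RNA, a smaller share of cells in S phase and less transcript in each cell cannot be told apart.

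The question asked of these genes was which of them differ between *Kap1* knockdown and control cells. Log2 intensities were compared with limma, and p-values were adjusted over all 6951 transcript clusters on the table. The table lists only clusters that differ between these groups. The adjusted p-values therefore leave out the unlisted clusters and do not give a false discovery rate for the whole array. Every listed cluster met the p threshold below, so the fold decides each call. Changed, risen or fallen means an adjusted p of at most 0.05 together with a fold of at least 1.4, a log2 fold change of 0.485. Of the 52 genes 6 rose and 4 fell, and 42 did not reach the fold, 19 of them lying under a fold of 1.2. *Cdk13*, *Rad51c*, *Cdk17*, *Rfc2*, *Pold4* and *Xrcc6* rose, with log2 fold changes from 0.53 to 1.08. *Fancb*, *E2f6*, *E2f4* and *Pola2* fell, from -0.60 to -0.77.

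The changed genes made up 19.2% of the set, against 32.3% of all 5322 genes on the table, where 15.8% rose and 16.5% fell. The choice of symbols bears on this share, since 5 of the 7 genes left out by name were changed, and with them 15 of 59 genes (25.4%) would be. Every transcript cluster on the table had an adjusted p under 0.05 (100% of genes), and the 3 arrays of one group lay wholly above or below those of the other for 100% of them, as they did for all 52 genes here. Both properties hold for the whole table, which lists genes that differ between these groups and has no values for the rest, so neither sets the 52 genes apart. The median absolute log2 fold change was 0.31 in the set and 0.37 over all genes on the table. Without regard to size, 23 of the 52 genes were higher and 29 lower in the knockdown (44.2% higher, against 50.3% of all genes on the table), with a median log2 fold change of -0.22 against 0.15. As no gene on the table lies closer to 0 than 0.118, such medians jump between the higher and the lower genes when a few members switch sides.

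**Figure D1:**
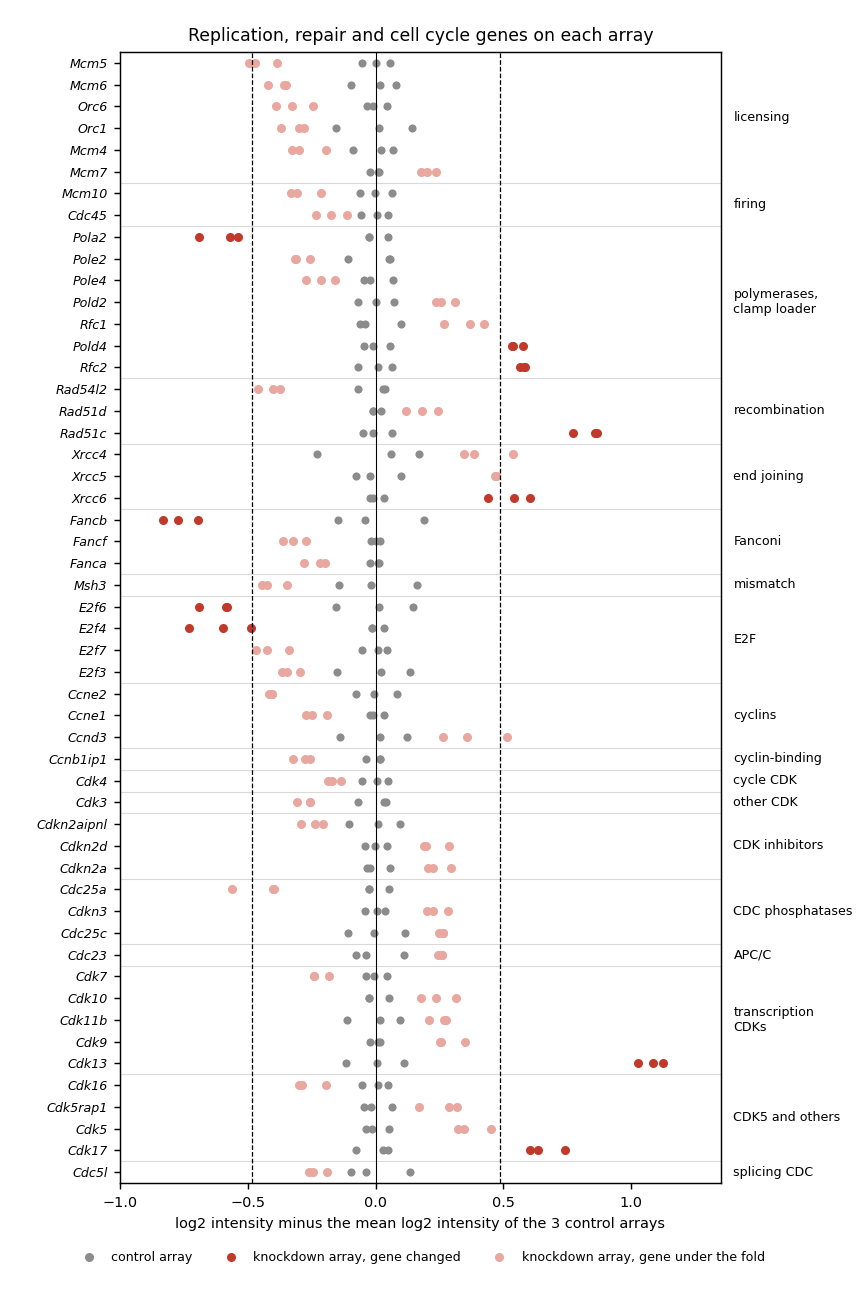
Each row is 1 of the 52 genes, grouped by role; points show the log2 intensity on each of the 3 control arrays (grey) and 3 knockdown arrays (red for the 10 changed genes, pink for the other 42) relative to the mean of the control arrays, and dashed lines mark a fold of 1.4. The knockdown arrays lie outside the range of the control arrays for every gene, as for 100% of genes on the table. Most knockdown arrays lie between the dashed lines.

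Genes that license and fire origins were lower in the knockdown in 7 of 8 cases, each under the fold of 1.4. Of all 5322 genes on the table, 2645 were lower. *Mcm5*, a subunit of the MCM ring, read 2181, 2102 and 2021 in the control and 1488, 1606 and 1515 in the knockdown, which gave a log2 fold change of -0.45 (standard error, SE, 0.055, and limma adjusted p = 5.89e-05). *Mcm6*, another ring subunit, read 1562, 1498 and 1383 in the control and 1103, 1154 and 1161 in the knockdown (log2 fold change -0.38). *Mcm4* was at -0.27, and the ORC subunits *Orc1* and *Orc6* were both at -0.32. Of the firing factors, *Mcm10* was at -0.29 and *Cdc45*, part of the active helicase, at -0.17. For none of these genes did a knockdown array reach the lowest control array, and the groups were apart for 100% of genes on the table.

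*Mcm7* was the exception among the licensing genes. This ring subunit read 1897, 1893 and 1850 in the control and 2125, 2214 and 2161 in the knockdown, which gave a log2 fold change of 0.20 (SE 0.048 and limma adjusted p = 0.00252). The subunits of the same hexamer thus differed in direction, from 73.1% of control for *Mcm5* to 115% for *Mcm7*. Neither value reaches the fold of 1.4.

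E2F factors bind promoters at a short motif, and promoter windows of 300 bases (250 before and 50 after the start) were available from RefSeq for 41 of the 52 genes. The motif was searched as TTTCCCGC, TTTCGCGC, TTTGCCGC or TTTGGCGC on either strand. It was found for 13 of the 41 genes (31.7%), 9 of the 24 with lower and 4 of the 17 with higher intensity in the knockdown. It was found for 2.60% of 27025 genes with a window, for 2.26% of all 32851 windows and for 4.67% of the 4243 genes of the expression table with a window. A gene with several windows was counted once, if any of them held a match. Genes with a match were thus found on both sides: *Mcm5*, *Mcm6*, *Orc1*, *Cdc25a*, *Pole2*, *Pole4*, *Msh3*, *E2f3* and *E2f7* among the lower, and *Mcm7*, *Rad51c*, *Xrcc6* and *Cdkn2a* among the higher. These windows are printed to show the motif in 3 subunits of one helicase that differ in direction, and in an E2F gene. The sequences are RefSeq's (build GRCm38.p6), 5′ to 3′ on the gene's strand, with matches in capitals; neighbouring matches run together.
*Mcm5* (chr8:75109259-75109558, plus strand): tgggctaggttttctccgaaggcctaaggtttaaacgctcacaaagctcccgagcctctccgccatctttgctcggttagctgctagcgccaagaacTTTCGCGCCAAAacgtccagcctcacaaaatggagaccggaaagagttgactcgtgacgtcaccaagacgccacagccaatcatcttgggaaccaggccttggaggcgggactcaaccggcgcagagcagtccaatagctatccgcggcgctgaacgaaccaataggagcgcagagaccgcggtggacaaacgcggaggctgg
*Mcm6* (chr1:128359656-128359955, minus strand): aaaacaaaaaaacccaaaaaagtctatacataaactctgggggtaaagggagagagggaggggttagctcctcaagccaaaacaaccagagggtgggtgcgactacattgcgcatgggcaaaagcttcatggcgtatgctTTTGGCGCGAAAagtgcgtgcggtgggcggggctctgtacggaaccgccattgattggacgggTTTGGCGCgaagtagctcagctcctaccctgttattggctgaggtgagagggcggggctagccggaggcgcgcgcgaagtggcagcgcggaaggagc
*Mcm7* (chr5:138171834-138172133, minus strand): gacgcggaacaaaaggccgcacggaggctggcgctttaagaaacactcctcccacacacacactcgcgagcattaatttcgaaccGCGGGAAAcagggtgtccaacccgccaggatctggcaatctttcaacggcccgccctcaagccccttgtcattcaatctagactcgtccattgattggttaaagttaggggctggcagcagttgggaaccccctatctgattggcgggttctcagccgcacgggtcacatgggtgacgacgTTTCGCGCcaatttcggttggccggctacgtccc
*E2f7* (chr10:110745189-110745488, plus strand): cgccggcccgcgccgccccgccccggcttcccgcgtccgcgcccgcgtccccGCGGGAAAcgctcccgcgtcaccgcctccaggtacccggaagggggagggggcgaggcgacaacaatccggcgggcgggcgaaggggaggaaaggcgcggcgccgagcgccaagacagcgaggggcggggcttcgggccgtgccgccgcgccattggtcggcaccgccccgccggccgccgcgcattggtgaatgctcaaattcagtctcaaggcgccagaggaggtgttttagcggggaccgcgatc

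Seen from the start of the gene, the matches of *Mcm5* began at bases -153 and -149 and overlap. Those of *Mcm6* began at -110, -106 and -47. *Mcm7*, which was higher in the knockdown, had matches at -165 and 17 in the window shown, and *E2f7* had 1 at -198. A match is a run of letters and not a measured binding site, and binding at these promoters was not analysed here.

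The E2F factors themselves were lower in the knockdown in 4 of 4 cases, and 2 of them fell. Of all 5322 genes on the table, 2645 were lower and 16.5% fell. *E2f4* (transcript cluster 10574682), which represses cell cycle genes in resting cells together with the retinoblastoma family, read 1395, 1396 and 1442 in the control and 850, 933 and 1005 in the knockdown. Its mean was 1411 ± 26.9 (SD, n = 3) against 929 ± 77.6 (SD, n = 3), a log2 fold change of -0.61 (SE 0.066 and limma adjusted p = 2.89e-05). *E2f6* (transcript cluster 10394690), a repressor that does not need the retinoblastoma proteins, read 544, 496 and 442 in the control and 305, 328 and 329 in the knockdown (log2 fold change -0.62 with SE 0.077 and limma adjusted p = 6.71e-05). The knockdown arrays were below every control array for both genes, where the groups were apart for 100% of genes on the table.

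*E2f7*, an atypical E2F that represses genes late in S phase, read 864, 807 and 843 in the control and 606, 623 and 662 in the knockdown (log2 fold change -0.41). *E2f3*, an activator of S phase entry, had -0.34 (SE 0.073), with control arrays spread from 634 to 773. Both lie under the fold of 1.4. The lower genes of this family include activators and repressors, and the activator *E2f2*, left out of the set by name, fell too (-0.50).

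**Figure D2:**
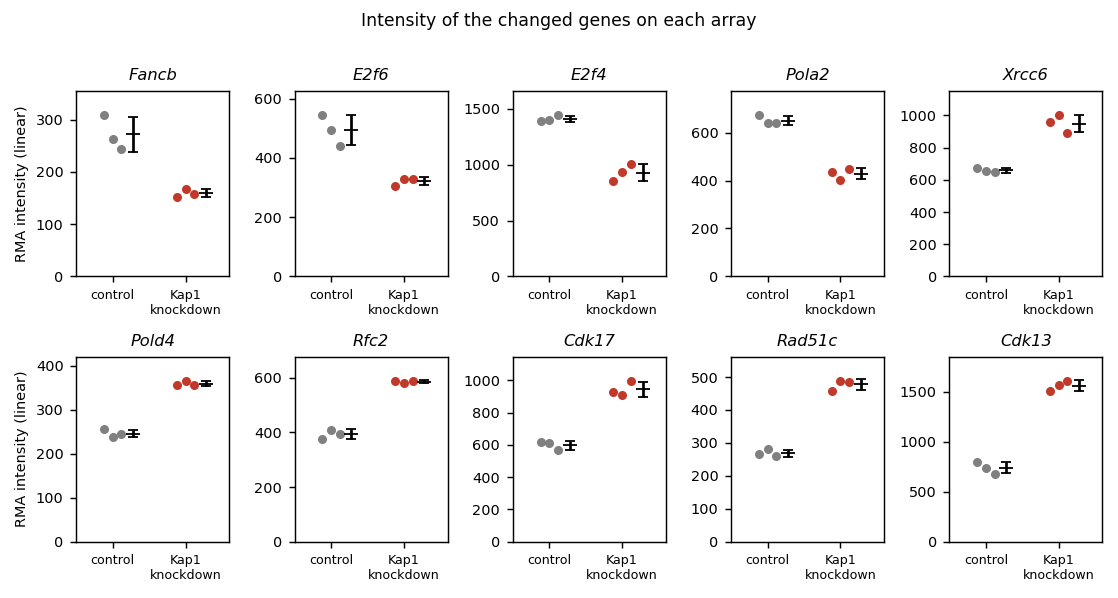
Linear RMA intensity of the 10 changed genes on each array, in order of log2 fold change from *Fancb* (-0.77) to *Cdk13* (1.08); points are arrays and the bar beside them is the mean with its SD (n = 3). In each panel the 3 knockdown arrays lie on one side of the 3 control arrays, as for 100% of genes on the table. The vertical axis starts at 0.

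Subunits of the replicative polymerases and the clamp loader moved in both directions, with 2 of 7 genes risen and 1 fallen. *Pola2* (transcript cluster 10465282), the second subunit of the polymerase alpha and primase complex that lays down primers, read 673, 639 and 639 in the control and 438, 403 and 448 in the knockdown. Its log2 fold change was -0.60 (SE 0.057 and limma adjusted p = 1.33e-05), 66.0% of control. *Rfc2* (transcript cluster 10526217), a small subunit of the clamp loader, read 374, 410 and 395 in the control and 589, 581 and 587 in the knockdown, and rose to 149% of control (log2 fold change 0.58 with SE 0.052 and limma adjusted p = 9.76e-06). The groups are apart for both genes by far more than the spread within them, and they are apart for 100% of genes on the table.

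*Pold4* (transcript cluster 10460392), the smallest subunit of polymerase delta, read 255, 238 and 244 in the control and 355, 366 and 356 in the knockdown (log2 fold change 0.55 with SE 0.050 and limma adjusted p = 1.05e-05). *Pold2*, the polymerase delta subunit that *Pold4* and the catalytic chain bind, had 0.27, and *Rfc1*, the large clamp loader subunit, 0.35. Subunits of polymerase epsilon were lower, *Pole2* at -0.30 and *Pole4*, which has a histone fold, at -0.22. Those 4 genes did not reach the fold of 1.4. Of these 7 genes, the delta and clamp loader subunits were higher and the epsilon and alpha subunits lower. *Prim1*, the primase subunit that works with *Pola2* in one complex, is outside the set and is named after its value was seen; it was higher (log2 fold change 0.41), under the fold.

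Of the genes of double-strand break repair, those for end joining were higher in 3 of 3 cases, and 1 rose. *Xrcc6* (transcript cluster 10425632) and *Xrcc5* encode the partners of the Ku dimer that caps broken DNA ends. *Xrcc6* read 674, 653 and 648 in the control and 957, 1001 and 892 in the knockdown, which gave a log2 fold change of 0.53 (SE 0.057 and limma adjusted p = 2.78e-05). *Xrcc5* read 634, 584 and 562 in the control and 820, 822 and 822 in the knockdown, so that 0.47 (log2, SE 0.057) stayed just under the threshold. *Xrcc4*, which holds the ligase of this pathway, had 0.42 with the largest standard error of the set (0.098), as its control arrays ranged from 303 to 399.

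The side of the threshold on which the end joining genes fall depends on the scaling and on 1 array. *Xrcc5* passed it after median centring (0.50), after quantile normalization (0.51) and without control replicate 1 (0.52), where *Xrcc4* passed too (0.51). *Lig4*, the ligase that *Xrcc4* binds and no member of the set, fell, with a mean of 415 ± 36.2 in the control and 288 ± 12.7 in the knockdown (SD, n = 3 each), by a log2 fold change of -0.53 (SE 0.070 and limma adjusted p = 1.05e-04). Without control replicate 1 its value was -0.46, under the fold. Partners within this pathway thus differed in direction.

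Among recombination genes *Rad51c* (transcript cluster 10389627), which acts in the repair of broken DNA by recombination, rose from 266, 280 and 259 to 458, 489 and 486. Its log2 fold change of 0.83 (SE 0.054 and limma adjusted p = 1.15e-06), or 178% of control, came second in the set. *Rad51d*, which acts in the same kind of repair, had 0.18. *Rad54l2*, a chromatin remodeller named for its likeness to RAD54, had -0.41, with 198, 197 and 184 in the control and 146, 149 and 140 in the knockdown. The mismatch repair gene *Msh3* had -0.41, with control arrays from 672 to 831.

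The 3 genes of the set with a *Fanc* symbol belong to the Fanconi anaemia core complex, which marks crosslinked DNA for repair. All 3 were lower and 1 of them fell, where 2645 of 5322 genes on the table were lower and 16.5% fell. Other genes of the Fanconi anaemia pathway have other symbols, among them *Rad51c*, which rose, and *Palb2*, which fell (log2 fold change -0.49). *Palb2* is outside the set and is named after its value was seen. Without control replicate 1 it was at -0.38, under the fold. *Fancb* (transcript cluster 10603135) read 308, 263 and 244 in the control and 152, 167 and 158 in the knockdown. Its log2 fold change of -0.77 (SE 0.084 and limma adjusted p = 3.00e-05) was the deepest fall of the set, to 58.8% of control. *Fancf*, an adaptor of the core complex, had -0.32, and *Fanca* -0.23. The control arrays of *Fancb* spread more widely (SD 32.9) than its knockdown arrays (SD 7.55). The groups did not meet, as for 100% of genes on the table.

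No cyclin of the set reached the fold of 1.4. *Ccne1* and *Ccne2* encode cyclin E, which with CDK2 starts S phase. *Ccne2* read 677, 636 and 606 in the control and 479, 482 and 483 in the knockdown (log2 fold change -0.41 with SE 0.055 and limma adjusted p = 1.10e-04), and *Ccne1* had -0.24. *Ccnd3*, a D cyclin that partners CDK4 and CDK6 in G1, read 768, 828 and 690 in the control and 913, 973 and 1084 in the knockdown (log2 fold change 0.38, standard error 0.083). The D cyclin *Ccnd1*, left out of the set by name, fell, with a mean of 4291 ± 48.2 in the control and 1968 ± 46.9 in the knockdown (SD, n = 3 each). *Cdk4* itself had -0.16, with 9064, 8785 and 8438 in the control and 7688, 7976 and 7790 in the knockdown, and its relative *Cdk3* had -0.28.

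CDK inhibitors and phosphatases showed small differences. *Cdkn2a*, whose locus encodes the inhibitor of CDK4 and CDK6 and the p53 activator ARF, had 0.24, and *Cdkn2d*, another inhibitor of those kinases, 0.22. *Cdkn2aipnl* had -0.25. *Cdc25a*, the phosphatase that frees CDK2 at the start of S phase, read 1054, 997 and 997 in the control and 688, 768 and 770 in the knockdown (log2 fold change -0.45 with SE 0.060 and limma adjusted p = 1.01e-04). *Cdc25c*, which acts at entry into mitosis, had 0.26, and *Cdkn3*, a phosphatase that switches CDKs off, 0.24. *Cdc23*, a subunit of the anaphase-promoting complex, had 0.26. None of these passed the fold, and *Cdc25a* came nearest.

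The largest rise of the set was in a kinase of transcription. *Cdk13* (transcript cluster 10407892), which with cyclin K phosphorylates RNA polymerase II, read 798, 741 and 682 in the control and 1506, 1569 and 1611 in the knockdown. Its mean was 740 ± 58.0 (SD, n = 3) against 1562 ± 52.9 (SD, n = 3), a log2 fold change of 1.08 (SE 0.066 and limma adjusted p = 7.01e-07), and it was the single gene of the set that passed a fold of 2. *Cdk9*, the kinase of the elongation factor P-TEFb, had 0.29, *Cdk11b* 0.25 and *Cdk10* 0.24. *Cdk7*, the kinase of the initiation factor TFIIH, had -0.22 on the cluster used and -0.54 on a dimmer one, whose control arrays ranged from 179 to 278. The transcription kinases apart from *Cdk13* thus stayed under the fold on the clusters used.

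*Cdk17* (transcript cluster 10365729), a kinase of the PCTAIRE family abundant in the brain, rose from 618, 610 and 566 to 928, 907 and 999 (log2 fold change 0.66 with SE 0.059 and limma adjusted p = 9.23e-06). Its relative *Cdk16* had -0.26. *Cdk5*, best known for its work in neurons, read 1048, 1002 and 987 in the control and 1265, 1286 and 1385 in the knockdown (0.37), and *Cdk5rap1*, named as a CDK5 regulator partner, had 0.26. The splicing factor *Cdc5l* had -0.23, with a like value (-0.25) on its second cluster, and *Ccnb1ip1*, a ubiquitin ligase of meiotic crossing over, -0.28 at intensities from 64 to 81. *Cdk13* and *Cdk17*, kinases named after the cell cycle that are best known for other work, thus stand among the 3 largest rises.

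**Figure D3:**
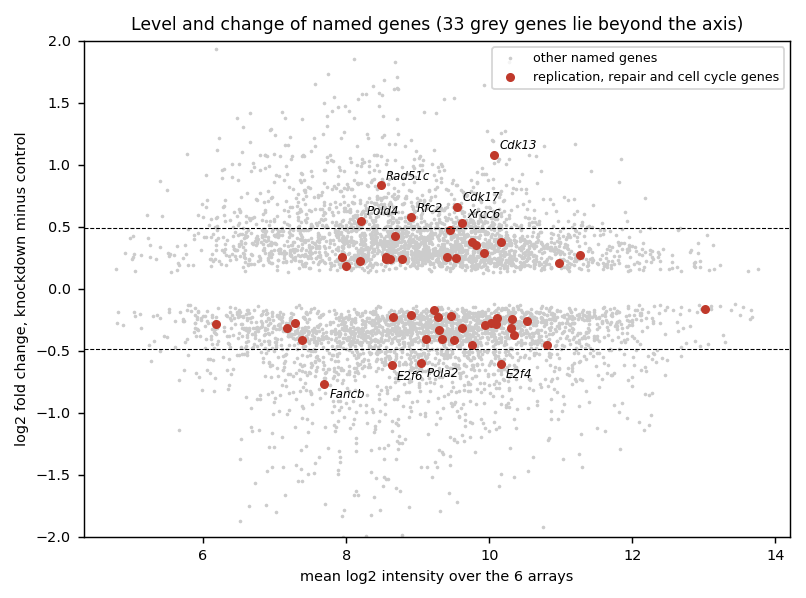
Mean log2 intensity over the 6 arrays (horizontal axis) against log2 fold change (vertical axis) for the 5322 named genes, with the 52 genes in red and dashed lines at a fold of 1.4; 33 other genes lie beyond the vertical range. The empty band around 0 shows that the table holds no gene closer to 0 than 0.118, and 42 red points lie between the dashed lines.

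Lists of genes that mark phases of the cell cycle put these values in context; they overlap the set in part. Of 43 S phase markers 17 were on the table, 13 lower and 4 higher in the knockdown; 2 fell, 1 (*Rfc2*) rose and 14 did not pass the fold. *Uhrf1*, which reads methylated DNA at replication forks, read 1419, 1420 and 1356 in the control and 896, 950 and 977 in the knockdown (log2 fold change -0.57), and *Dtl*, which directs the destruction of the licensing factor CDT1, had -0.55. Of the 11 S phase markers outside the set, 8 were lower and 3 higher.

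Of 54 G2/M markers 23 were on the table, 11 lower and 12 higher. Of these 23 markers 2 fell, 1 rose and 20 did not pass. The changed share was 13.0%, against 32.3% of all genes on the table. *Ckap2l*, a protein of the mitotic spindle, rose, with a mean of 784 ± 78.5 in the control and 1441 ± 18.6 in the knockdown (SD, n = 3 each), by a log2 fold change of 0.88. *Kif23*, a kinesin of cytokinesis, fell by 0.71 on the log2 scale. *Top2a* also fell (-0.51, and -0.33 without control replicate 1, under the fold), on a dim transcript cluster that read 64, 47 and 42 in the control and 35, 36 and 35 in the knockdown. The share that was lower was thus 13 of 17 for S phase and 11 of 23 for G2/M; the difference between the lists was not tested.

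Of 87 other genes of replication, checkpoint and repair 35 were on the table, with 26 lower and 9 higher, beside 2645 lower of all 5322. Of these 35 genes 6 fell and 2 rose, a changed share of 22.9% against 32.3% of all genes on the table. The falls numbered 3 after median centring, after quantile normalization and without control replicate 1. *Skp2*, which directs the destruction of the CDK inhibitor p27, read 747, 737 and 689 in the control and 440, 440 and 473 in the knockdown (log2 fold change -0.68 with SE 0.056 and limma adjusted p = 5.20e-06). *Wee1*, the kinase that restrains CDK1 before mitosis, fell by 0.56, and the checkpoint kinase *Chek1* by 0.49. *Chek1* lost its call after median centring (-0.46), after quantile normalization (-0.45), with a pseudocount of 16 (-0.48), without control replicate 1 (-0.41) and without knockdown replicate 2 (-0.47). *Rbl1*, a retinoblastoma family member that binds E2F4, rose from 725, 693 and 607 to 947, 978 and 1042 (log2 fold change 0.55 with SE 0.073 and limma adjusted p = 9.89e-05). *Rb1*, the retinoblastoma gene, rose as well (0.51). The call for *Rb1* and *Rbl1* did not hold without control replicate 3, where the count that rose in this list was 0. *Chek1* and *Rb1* are named after their values were seen.

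**Figure D4:**
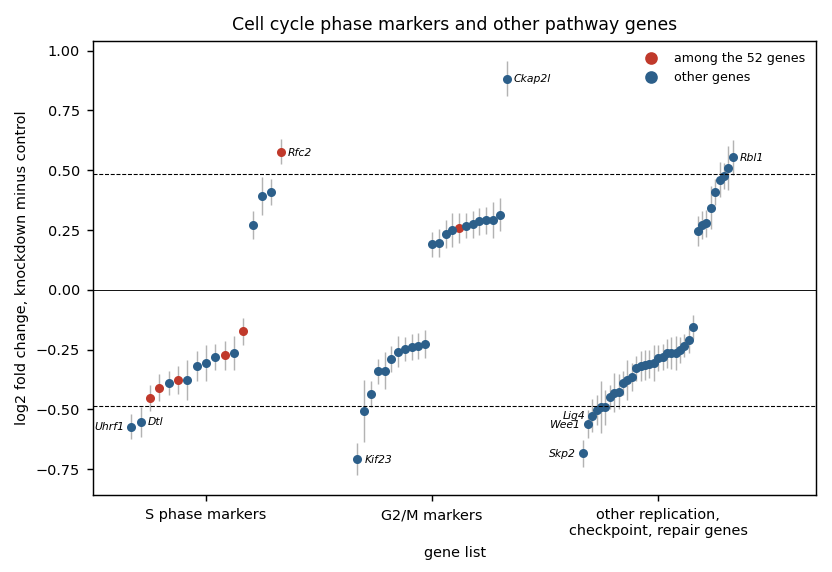
Log2 fold change of each gene on the table from the S phase list (17 genes), the G2/M list (23) and the list of other replication, checkpoint and repair genes (35), with the standard error as bars; red points belong to the set of 52, dashed lines mark a fold of 1.4, and names are given to most genes past them. Lower genes outnumber higher ones in the S phase list (13 to 4) and the list of other genes (26 to 9) and the G2/M list is split 11 to 12.

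The direction of genes on the table differed between chromosomes, taken from RefSeq (GRCm38.p6). On chromosome 5, where 87.2% of the 407 named genes on the table were higher in the knockdown, all 4 genes of the set (*Cdk5*, *Mcm7*, *Rfc1* and *Rfc2*) were higher. The median log2 fold change of that chromosome was 0.37, beside 0.58 for *Rfc2* and 0.20 for *Mcm7*. On chromosome 7, where 23.1% were higher, *Ccne1* and *Fancf* were both lower, and on chromosome 18, where 80.5% were higher, *Cdc23* and *Cdc25c* were both higher. Across the set 31 of 52 genes had the sign of their chromosome's median and 21 the opposite sign, a share of 59.6% beside 66.1% of all 5314 named genes with a chromosome. The part of chromosome in these results was not tested, and the medians cover listed genes only.

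Genes that ran against their chromosome included the largest rise. *Cdk13* (1.08) lies on chromosome 13, with a median of -0.28, and *Xrcc5* (0.47) on chromosome 1, with a median of -0.23. *E2f6* (-0.62) lies on chromosome 12, with a median of 0.24, and *Ccne2* (-0.41) and *Orc1* (-0.32) on chromosome 4, with 0.25. Set against the median of its chromosome, 32 of the 52 genes were lower, and 9 lay above and 7 below by at least the fold of 1.4, in place of 6 and 4. Of the 5314 named genes with a chromosome, 844 lay above and 1008 below by that fold. A median by definition leaves as many genes of its chromosome above it as below. The comparison with the chromosome median was added after the values were seen. *Pola2*, *E2f4*, *Fancb*, *Rfc2* and *Cdk17* did not pass it, with remainders of -0.35, -0.33, -0.39, 0.21 and 0.43.

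**Figure D5:**
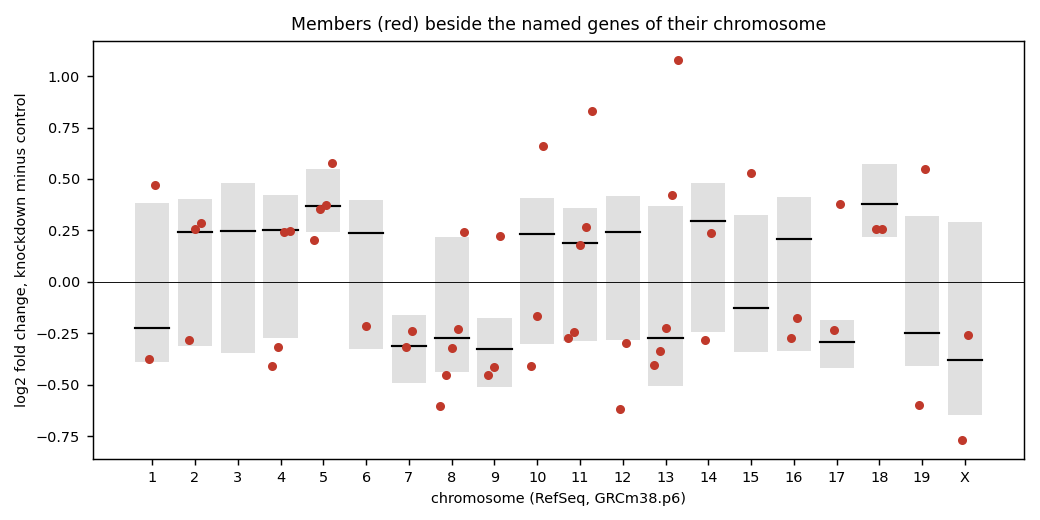
Log2 fold change of the 52 genes (red) by chromosome, beside the median (black line) and the middle 50% (grey bar) of all named genes of that chromosome on the table. The 4 genes of chromosome 5 sit above 0 with the grey bar, while *Cdk13* on chromosome 13 sits far above its bar.

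The arrays of a group also differed in a common way. Control replicate 1 read highest of the 3 control arrays for 41 of the 52 genes (64.0% of all named genes), and its median intensity over all transcript clusters was 553, against 531 and 505. Without control replicate 1, 8 genes of the set rose and 4 fell. Over all named genes the rises then went from 839 to 976 and the falls from 879 to 779. The 6 and 4 calls of the set held without each of the other 5 arrays in turn.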

How the data were processed

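Total RNA (200 ng a sample) from 6 samples was hybridised to Mouse Gene ST arrays. The deposited values are linear intensities that the authors obtained by RMA normalisation in GeneSpring. The table used here holds whole numbers, and a second, unrounded table differs from it by at most 0.5. No build is named for the transcript clusters in the sources used here, and chromosomes and promoters follow RefSeq (GRCm38.p6). The number of arrays limits the precision.

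Arrays were grouped by their labels. Differences in log2 intensity were tested with limma 3.58.1 (lmFit and eBayes, R 4.3.3) without a replicate block. Benjamini-Hochberg adjustment ran across the 6951 transcript clusters. The code was first run on simulated data in which most clusters did not change. As all clusters on the real table differ, that run does not bear on the adjusted p-values given here. Symbols came from the platform annotation, and all 52 genes matched RefSeq by gene identifier. Counts were made in Python 3.11.15 with pandas 2.3.3.

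The members and gene lists were chosen with earlier results of these data known. The genes named are the 10 largest rises and 10 largest falls of the set, up to 4 changed genes of each role, the brightest 3 of roles with few changes, all licensing, polymerase, cyclin and E2F genes, and up to 4 changed genes of each other list. *Cdk3*, *Cdk5rap1*, *Cdk7* and *Cdk10* fall outside this rule and are given so that every gene has a value.

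The alternatives were the unrounded table, each array centred on its median, quantile normalization, a replicate block, eBayes with trend and robust options, removal of dim clusters (mean log2 below 6 in each group), log2 after adding a pseudocount of 16, a stricter fold (2) or adjusted p (0.01), averaging the clusters of a gene, and removal of single arrays. Values relative to the chromosome median were added after the data were seen.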

Additional observations from a re-analysis of the deposited data

How the results depend on the processing

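The 10 changed genes kept their direction and call under the alternatives run, except at a fold of at least 2, which left 1 risen and 0 fallen, and against the chromosome median. Leaving out 1 array at a time gave 6 to 8 risen, 4 fallen, 23 higher at any size and a median log2 fold change of members of the set from -0.24 to -0.17; the upper end came without control replicate 1, and the cause was not tested. The median was -0.18 after quantile normalization. Against the chromosome median, 7 genes lay below the fold and the median was -0.0525, which follows from subtracting those medians. No member changed sign under any alternative fitted on arrays. With the replicate block 6 rose and 4 fell, and no call of the set changed. Same-numbered arrays deviated with correlations of -0.17, -0.13 and 0.04. These values show no shared deviation by number, but cannot tell whether same-numbered samples were handled together. In the list of other replication, checkpoint and repair genes, 4 rose and 3 fell after median centring, after quantile normalization and without control replicate 1, in place of 2 and 6. Falls among G2/M markers went from 2 to 1 under median centring, a pseudocount of 16, without control replicate 1, and with dim clusters left out, where *Top2a* was removed. Of the counts for single lists and roles, 645 stayed within 1.5 times and 27 did not, and at a fold of 2 the transcription kinases kept a call while the other roles and the 3 lists of phase markers and other replication, checkpoint and repair genes had none.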

Other observations

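Other promoter motifs of cell cycle genes were searched in the same RefSeq windows, on both strands. The CCAAT box (CCAAT) was found for 27 of the 41 genes with a window (65.9%), 15 of 24 with lower and 12 of 17 with higher intensity in the knockdown, beside 41.1% of all genes with a window and 43.6% of those on the expression table. The cell cycle homology region (TTTGAA), known from genes of G2 and mitosis, was found for 6 of the 41 (14.6%), beside 20.2% of all genes and 13.8% of those on the table. Both motifs are short, and a match is a description of the letters in the window.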
